A study of Mus musculus with 2 samples.

Results

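Axon guidance ligands and receptors were read from the RNA-seq of dorsal root ganglion (DRG) neuron preparations. The genes were chosen by symbol alone and comprise the semaphorins of classes 3 to 7 with their plexin and neuropilin receptors, the ephrins with the Eph receptors, the Slits with the Robo receptors, and the netrins with Dcc and the Unc5 receptors. The rule found 69 genes of the 24411 genes listed, on 118 of the 35034 transcript rows. Each group was a single library made from the pooled DRG neurons of 10 male C57BL/6 mice (C57BL/6J in the study's methods), 6 to 8 weeks old at purchase. Alum-injected mice received 50% alum, an aluminium salt adjuvant, into the peritoneal cavity on days 0 and 14, and alum + KLH-immunized mice received the same alum mixed with KLH (100 µg), the keyhole limpet hemocyanin, a mollusc protein that serves as a foreign antigen. Thoracic and lumbar ganglia were taken on day 28, digested, enriched for neurons on albumin and depleted of B lymphocytes with beads. The label of the control library describes it as naïve and as given alum alone, and it was treated here as alum-injected. There are no replicates, so no difference between the pools was tested, and pooling removes the spread between mice.

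Guidance cues steer growing axons by binding receptors on the growth cone, where they act on the cytoskeleton through small GTPases. Secreted semaphorins of class 3 bind neuropilins that signal through plexins, the membrane-bound semaphorins bind plexins directly, and ephrins and Eph receptors are both tethered to membranes and can signal in both directions. Slits act through Robo receptors, and netrins attract through Dcc and repel through Unc5 receptors. In sensory neurons these systems are best known for shaping the paths and the branching of axons in the embryo, and many members remain expressed in the adult.

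Values are TPM, the number of transcripts of a gene among 1000000 transcripts, in which reads are divided by transcript length and scaled to the library, so that levels of different genes can be set side by side. Rows of the same gene were summed, and a gene was called detected above 3 TPM, the threshold given in the study's methods. The preparations carried neuronal and glial markers. All 11 neuronal marker genes were detected in both pools, at a summed 15642 TPM in the alum pool and 15455 TPM in the alum + KLH pool. Detected in both pools were 8 of 8 satellite glia markers (1516 and 1391 TPM summed), 7 of 11 Schwann cell markers (2250 and 2212 TPM), 4 of 10 fibroblast and meningeal markers (113 and 112 TPM), 2 of 7 endothelial markers (18.0 and 13.5 TPM), 1 of 6 mural cell markers, 1 of 12 macrophage markers, 0 of 6 B lymphocyte markers and 1 of 5 T lymphocyte markers. In such bulk RNA, fewer cells of a type and less RNA per cell cannot be told apart, nor can a neuron be told from a glial cell as the source of a guidance transcript.

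Of the 69 guidance genes, 32 were detected in the alum pool and 30 in the alum + KLH pool, which is 46.4% and 43.5% of them, beside 46.9% and 46.3% of all genes. In at least one pool it was 46.4%, beside 47.7% of all genes, and 30 genes passed in both pools, where 45.5% of all genes did. The 2 that passed only in the alum pool were Plxna1 and Sema4c, both close to the threshold. Another 37 genes stayed at or under 3 TPM in both pools, 27 of them below 1 TPM in both. Above 10 TPM in at least one pool were 22 of the guidance genes (31.9%), near the 34.8% of all genes, and above 100 TPM only Plxnc1 and Robo2, beside 9.01% of all genes. Together the 69 genes summed to 1146 TPM in the alum pool and 1102 TPM in the alum + KLH pool, or 0.115% and 0.110% of each library. The 4 highest, Plxnc1, Robo2, Sema6d and Nrp1, held 54.7% and 54.9% of that sum. The receptors summed to 744 TPM in the alum pool and 710.4 TPM in the alum + KLH pool, most of it from Plxnc1 and Robo2, and the ligands to 403 and 391 TPM. The median gene was higher among ligands (1.90 and 1.61 TPM) than among receptors (1.44 and 1.33 TPM), and 17 of 35 ligands and 15 of 34 receptors were detected in at least one pool.

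**Figure D1:**
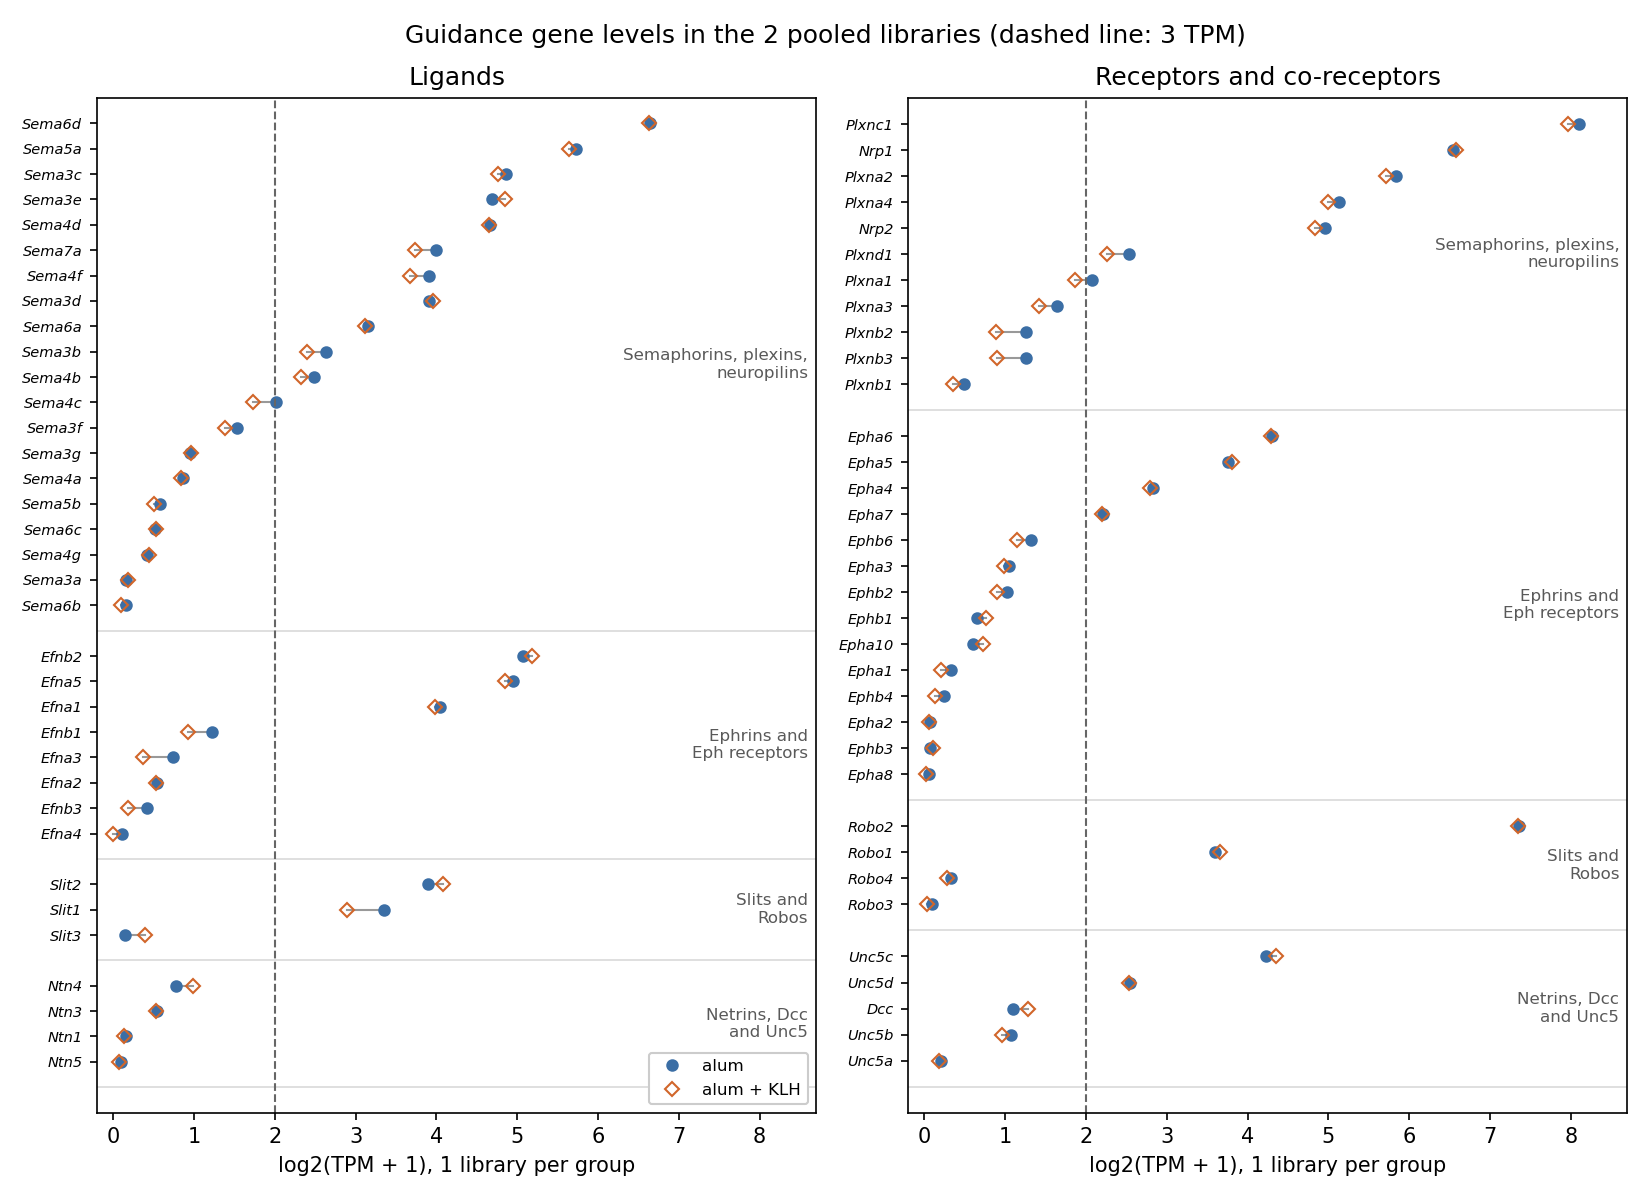
Level of each of the 69 guidance genes as log2(TPM + 1), with ligands on the left and receptors on the right, ordered by the alum pool within each system. Filled circles are the alum library and open diamonds the alum + KLH library, and the dashed line marks 3 TPM. The 2 symbols of a gene lie close together, while genes of 1 family are spread from near 0 to as much as 272 TPM for Plxnc1.

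The semaphorin receptors were the most abundant group. Plxnc1 (chr10:94790866-94945015 of GRCm38) encodes plexin C1, the receptor of the semaphorin Sema7a and a gene associated with non-peptidergic nociceptors. It was at 272 TPM in the alum pool and 249 TPM in the alum + KLH pool, and was exceeded by 3.12% and 3.47% of all genes. The level in the alum + KLH pool was lower by 0.13 on the log2 scale of TPM + 1, less than the SD of 0.19 that this ratio had over the 500 genes closest to it in level. Over the 7 non-peptidergic markers, a list that itself holds Plxnc1, the summed level was 876 and 778 TPM. The sum was also lower for peptidergic nociceptor markers (7539 and 7107 TPM) and markers of Th-expressing neurons (347 and 322 TPM). For large-fibre neuron markers the sum was higher (1706 and 1860 TPM), with Spp1 alone at 196 and 352 TPM. Pvalb and Calb1 were also higher, while Nefh, Ldhb, Ntrk3 and Cacna1h were lower. The part of these cells in the Plxnc1 values was not tested.

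Because Plxnc1 was the highest guidance gene, the 250 bases before a transcript start that RefSeq gives for it (chr10:94944846-94945095 of GRCm38.p6, minus strand) are shown beside those of Sema3e (chr5:14025026-14025275, plus strand), an abundant ligand gene. The Plxnc1 start used lies 10 bases from that of the transcript quantified and inside the gene's range given above, which reaches further upstream. Capitals mark CG dinucleotides.
Plxnc1: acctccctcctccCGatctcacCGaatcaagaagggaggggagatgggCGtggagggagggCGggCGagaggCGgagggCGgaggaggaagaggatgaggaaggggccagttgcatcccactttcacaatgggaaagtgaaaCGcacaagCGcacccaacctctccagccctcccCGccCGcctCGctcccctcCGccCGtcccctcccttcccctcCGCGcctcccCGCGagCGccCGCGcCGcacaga
Sema3e: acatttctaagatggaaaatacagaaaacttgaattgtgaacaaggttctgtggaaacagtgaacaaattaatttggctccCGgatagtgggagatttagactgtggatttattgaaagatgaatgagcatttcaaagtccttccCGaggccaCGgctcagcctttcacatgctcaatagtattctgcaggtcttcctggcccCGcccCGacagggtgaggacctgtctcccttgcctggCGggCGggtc
The Plxnc1 sequence holds 22 CG dinucleotides and the Sema3e sequence 7. Promoter sequences were matched for 59 of the 69 genes, on 75 starts. Their median was 15 CG dinucleotides in the 250 bases, against 6 over all 32851 promoters in the table, and it was 16 for the detected guidance genes and 13 for the others. GGGCGG, searched on both strands, was found in 70.7% of the guidance promoters and 32.7% of all promoters, and TATAAA in 2.67% and 12.4%. Detected and undetected guidance genes held GGGCGG in 71.4% and 70.0% of promoters.

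Among the A-type plexins, which carry the signal of class 3 semaphorins once these bind a neuropilin, Plxna2 was the highest at 56.3 TPM in the alum pool and 51.6 TPM in the alum + KLH pool. Plxna4, which is required for the response of sensory axons to Sema3a, was at 33.9 and 30.9 TPM. Plxna1 was at 3.23 and 2.63 TPM and Plxna3 at 2.12 and 1.67 TPM, so the 4 genes of this class ran from well above to below the detection threshold. Plxnd1, the receptor through which Sema3e acts without a neuropilin, was at 4.77 and 3.77 TPM. None of the 3 B-type plexins, the receptors of class 4 semaphorins, was detected, with Plxnb2 and Plxnb3 each at 1.39 TPM in the alum pool and 0.855 and 0.863 TPM in the alum + KLH pool, and Plxnb1 at 0.401 and 0.282 TPM. Plxnd1 is also known from blood vessels. Only 2 endothelial markers were detected, Cdh5 and Emcn, with a median log2 ratio of -0.19 beside -0.27 for Plxnd1. After the centring by GC content described below, Cdh5 was at -0.16, Emcn at -0.21 and Plxnd1 at -0.08. The part of endothelial cells in the Plxnd1 values was not tested.

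The 5 detected plexins were all lower in the alum + KLH pool, by 0.12 to 0.27 on the log2 scale. Among all genes detected in at least one pool, 56.4% were lower. The undetected plexins were lower too, by 0.13 to 0.36, at levels under the threshold. All 9 signs stayed with TPM rescaled by the median ratio of the pools, taken relative to Hprt, or restricted to coding rows. These settings moved the median of all detected genes by only 0.021, -0.080 and 0.001. Shifts of this size could not turn the sign of a plexin, so they do not check it. Of the neuropilins, 1 of 2 was lower. Nrp1 (chr8:128358591-128505476), the co-receptor of Sema3a and of a vascular growth factor, was at 92.0 and 94.9 TPM, with a log2 ratio of 0.05. The study reports this row, NM_008737, under the symbol Nrp2, while the deposited data give it the symbol Nrp1. Nrp2, the co-receptor of Sema3f, was at 30.2 and 27.4 TPM, with a ratio of -0.13.

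Semaphorin ligands ranged from 0.114 TPM to 99.4 TPM in the alum pool, and 11 of the 20 were detected in both pools. Sema6d (chr2:124089943-124667789), a transmembrane semaphorin that binds A-type plexins, was the highest at 99.4 and 98.4 TPM. It was followed by Sema5a, a transmembrane protein with thrombospondin repeats, at 51.8 and 49.0 TPM. Among the secreted class 3 semaphorins, Sema3c was at 28.1 and 26.2 TPM, Sema3e at 24.9 and 27.9 TPM and Sema3d at 14.02 and 14.6 TPM. Sema3a, the classic repellent of sensory axons, was at 0.120 and 0.139 TPM. Thus Nrp1 and Plxna4, through which Sema3a acts, were detected in both pools while the ligand was far below the threshold. The study's methods give a minimum read depth per sample, but TPM does not give the reads of a gene. A value this low therefore marks the gene as below the threshold and not as free of reads.

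The class 4 semaphorin Sema4d, also known as CD100 on lymphocytes, was at 24.3 and 24.2 TPM, and Sema4f at 14.1 and 11.7 TPM. Sema7a, which is held in the membrane by a lipid anchor and binds plexin C1, was at 14.9 and 12.4 TPM, far below its receptor. The other detected ligands were Sema6a, Sema3b, Sema4b and Sema4c, between 3.06 and 7.92 TPM in the alum pool and between 2.31 and 7.70 TPM in the alum + KLH pool. The remaining 8 semaphorins (Sema3a, Sema3f, Sema3g, Sema4a, Sema4g, Sema5b, Sema6b and Sema6c) did not exceed 1.90 TPM in the alum pool or 1.61 TPM in the alum + KLH pool.

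**Figure D2:**
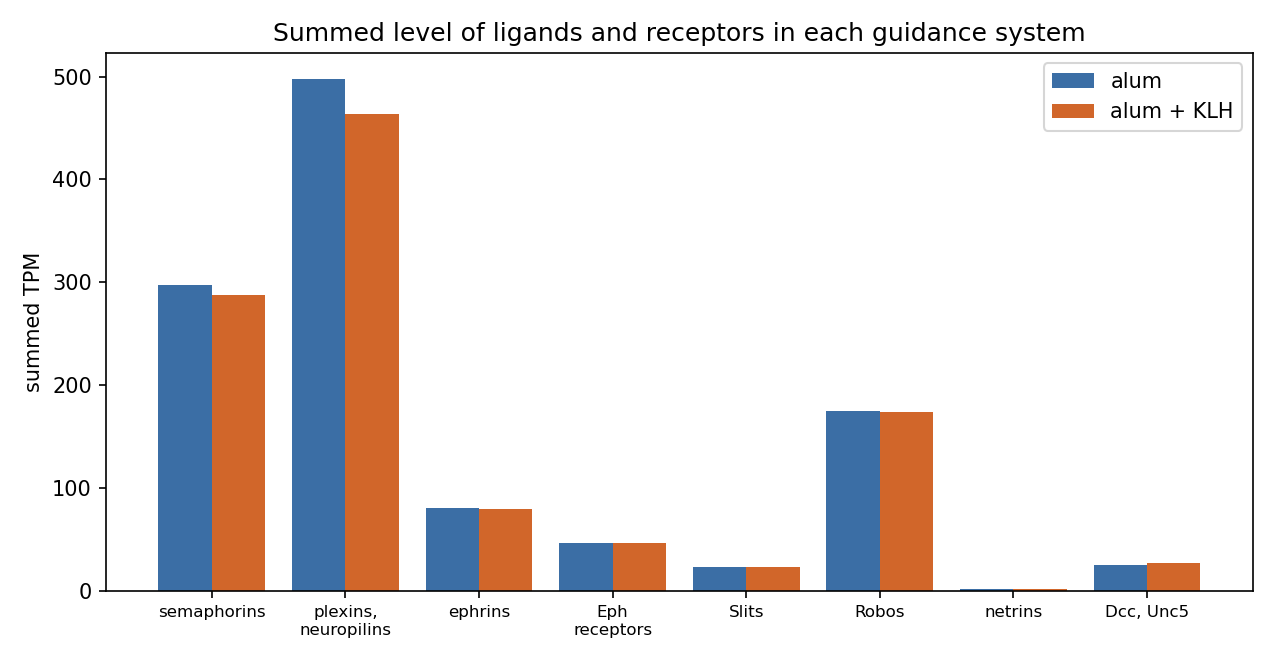
Summed TPM of the ligands and of the receptors of each guidance system in the alum library (blue) and the alum + KLH library (orange), 1 library per group. Plexins and neuropilins reach 498 and 464 TPM, Robo receptors 174 and 174 TPM, and netrins 1.37 and 1.59 TPM.

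Ephrins and Eph receptors were each represented by a few genes. Efnb2 (chr8:8617235-8661242), a transmembrane ephrin, was at 32.6 TPM in the alum pool and 35.4 TPM in the alum + KLH pool. The lipid-anchored ephrins Efna5 and Efna1 were at 29.8 and 27.9 TPM and at 15.5 and 14.8 TPM. The other 5 ephrins were between 0.083 and 1.33 TPM in the alum pool and did not exceed 0.902 TPM in the alum + KLH pool, where Efna4 was listed at 0. On the receptor side, Epha6 was at 18.7 and 18.6 TPM, Epha5 at 12.5 and 12.9 TPM, Epha4 at 6.10 and 5.90 TPM and Epha7 at 3.61 and 3.57 TPM. Epha4 is known to bind ephrins of both classes. The log2 ratios of these 4 receptors lay between -0.04 and 0.04. All 5 EphB receptors, the usual partners of B-type ephrins, were undetected, with Ephb6 the highest at 1.49 and 1.22 TPM and a sum over the 5 genes of 3.32 and 2.96 TPM. Ligand and receptor of the B class thus differed in these preparations, in that Efnb2 was detected and the EphB receptors were not.

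The Slit and Robo system was carried mainly by 1 receptor. Robo2 (chr16:73891976-75447443) was at 163 TPM in the alum pool and 162 TPM in the alum + KLH pool, exceeded by 5.51% and 5.55% of all genes. Its neighbour Robo1, 844 kb away on the same chromosome, was at 11.1 and 11.6 TPM, so that Robo2 was 14.71 and 13.96 times as abundant. Robo3, known from commissural neurons, and Robo4, known from endothelium, were at 0.066 and 0.023 TPM and at 0.262 and 0.210 TPM. Of the ligands, Slit2 (chr5:47981291-48307735) was at 13.9 and 15.9 TPM, Slit1 (chr19:41597824-41747275) at 9.26 and 6.43 TPM and Slit3 at 0.112 and 0.320 TPM. Slit1 and Slit2 were the detected guidance genes with the lowest and the highest ratio between the pools. The log2 ratio was -0.46 for Slit1, within the SD of 0.52 of genes of similar level, and 0.18 for Slit2, within an SD of 0.23. This SD was uneven along the levels, at 0.22 around Epha4, lower in level than Slit1, and 0.22 around Robo1, higher in level. The Slit1 ratio lay outside those SDs.

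Netrins were the only ligand family without a detected member, with Ntn4 the highest at 0.718 TPM in the alum pool and 0.982 TPM in the alum + KLH pool. Ntn3 was at 0.458 and 0.446 TPM, Ntn1, the founding netrin of the spinal cord midline, at 0.119 and 0.102 TPM, and Ntn5 at 0.075 and 0.057 TPM. The attractive receptor Dcc was at 1.14 and 1.44 TPM. The repulsive receptors were uneven, with Unc5c (chr3:141465564-141834924) at 17.7 and 19.4 TPM, Unc5d at 4.84 and 4.79 TPM, Unc5b at 1.11 and 0.949 TPM and Unc5a at 0.158 and 0.135 TPM. Unc5 receptors also bind proteins of the FLRT family, and Flrt3 was at 38.1 and 40.3 TPM in the same pools.

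There were 11 pairs of neighbouring guidance genes with at most 1 Mb between them. In 5 pairs 1 gene was detected and the other was not, and in 6 pairs both were detected or neither was. The share over neighbouring pairs of all genes was not computed, and Efna1, Efna3 and Sema3a recur among the pairs. These counts are therefore no result about the guidance genes. On chromosome 5, Sema3d, Sema3a and Sema3e follow each other with gaps of 536 and 422 kb, and Sema3a was the only one of the 3 below the threshold. Efna1, Efna3 and Efna4 lie within chr3:89271730-89338028, where Efna1 was at 15.5 and 14.8 TPM, Efna3 at 0.667 and 0.287 TPM and Efna4 at 0.083 and 0 TPM. Robo4 and Robo3, only 2.02 kb apart on chromosome 9, were both undetected. Sema3b and Sema3f, 72.3 kb apart on the same chromosome, were at 5.19 and 4.29 TPM and at 1.90 and 1.61 TPM.

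Between the pools, no detected guidance gene differed by as much as 1.5-fold. Of the 32 genes detected in at least one pool, 0 were at least 1.5-fold higher in the alum + KLH pool and 0 at least 1.5-fold lower, where 1.0% and 1.55% of all 11648 genes passing the same filter were (2.56% either way). None was 2-fold apart either, where 0.695% of all these genes were higher and 0.944% lower by that much. With a background of this size fewer than 1 of 32 genes would be expected in either direction, so the counts are no result about the guidance genes. The log2 ratios ran from -0.46 to 0.18 with a median of -0.051, beside a median of -0.020 over all detected genes. The ratio was nearer to 0 than 0.2 for 25 of the 32 genes (78.1%) and for 81.3% of all detected genes. It exceeded the SD of genes of similar level in 4 of them (Plxna2, Sema3b, Sema4f and Sema7a), in each case by little, and in 17.1% of all detected genes. After Slit1 the lowest ratios were those of Sema4c, with -0.29, and Plxnd1. Above 0, Slit2 was followed by Sema3e with 0.16, Unc5c with 0.12 and Efnb2 with 0.11. Lower in the alum + KLH pool were 24 of the 32 genes, beside the 56.4% of all detected genes given above. Rescaling the pools to a median ratio of 1 left 18 of 32 lower, beside 49.8% of all detected genes, and taking TPM relative to Hprt gave 28 of 32, beside 79.0%.

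The ratio moved with the base composition of the transcripts. The GC content of the leading transcript of each gene was available for all 69 guidance genes and for 98.8% of all detected genes. For the 8 detected guidance genes with 55% GC or more (Sema4b, Sema4c, Sema4f, Plxna1, Sema7a, Sema3b, Slit1 and Plxnd1), every ratio was below 0, from -0.46 to -0.17, with a median of -0.25. The 19 genes below 50% GC had a median of -0.012 and a range from -0.13 to 0.18, with 13 below 0, and the 5 genes in between had a median of -0.008. The whole table moved in the same way. Over all detected genes the median ratio was -0.16 at 55% GC or more (1912 genes, 84.6% below 0) and 0.020 below 50% GC (6604 genes, 42.2% below 0). Across the 32 guidance genes the Spearman correlation of ratio and GC content was -0.69 (Pearson -0.73), and across the 11504 detected genes with a GC value it was -0.46 (Pearson -0.19). These are descriptions across genes of the same 2 libraries, and genes are not independent replicates.

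**Figure D3:**
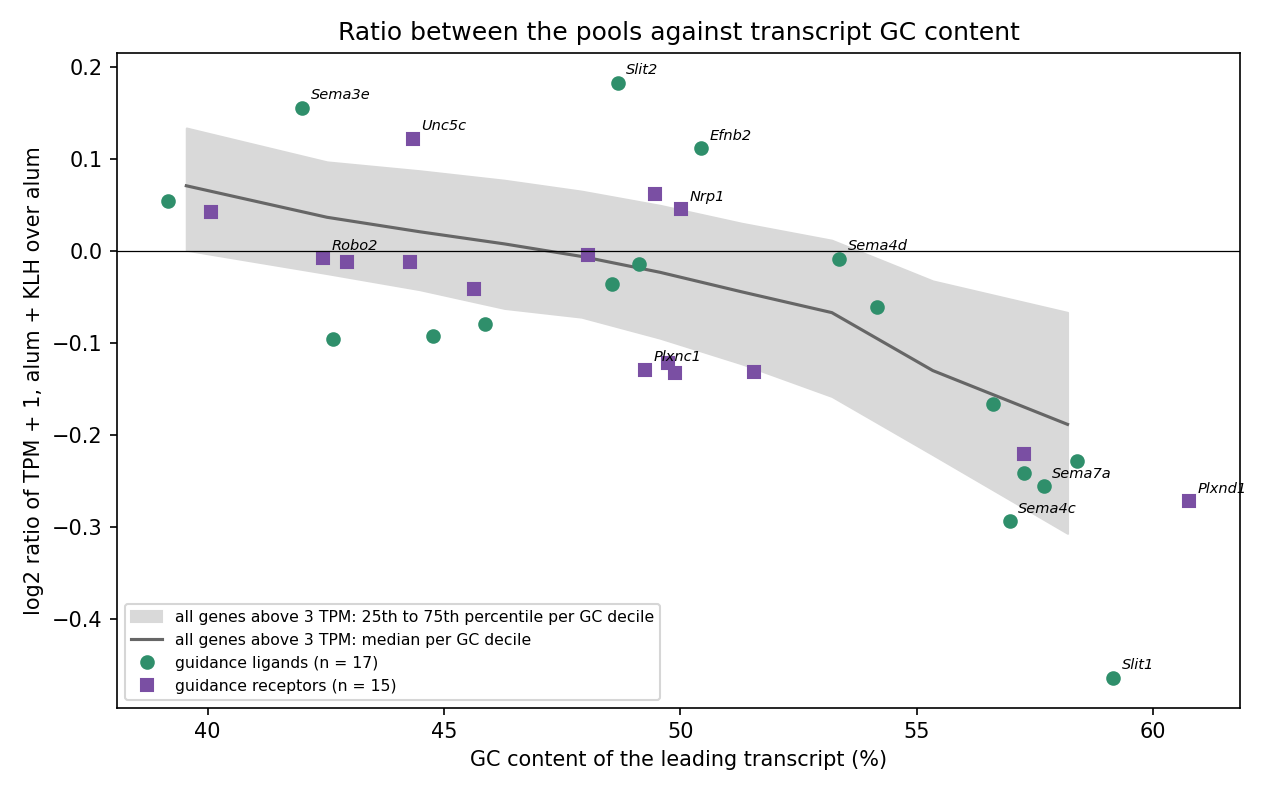
Log2 ratio of TPM + 1 (alum + KLH over alum) against the GC content of the leading transcript for the 17 ligands and 15 receptors detected in at least one pool, 1 library per group. The grey line and band are the median and the 25th to 75th percentile of all detected genes in each decile of GC content, which go from a median of 0.071 in the lowest decile to -0.19 in the highest. Slit1 lies below the band and Slit2 above it, as do other guidance genes, such as Plxnc1 below it and Efnb2 above it.

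Subtracting from each ratio the median of all detected genes in the same decile of GC content took the ratio of Slit1 from -0.46 to -0.28, that of Plxnd1 from -0.27 to -0.08, that of Sema4c from -0.29 to -0.11 and that of Sema7a from -0.26 to -0.07. Slit2 stayed at 0.19. The median over the 32 genes was then -0.036, with 21 of 32 (65.6%) below 0, where the centring itself puts 50% of all detected genes, none was 1.5-fold apart (2.34% of all detected genes were), and the 5 detected plexins were all still lower, by 0.03 to 0.11. Whether the base composition or the immunization accounts for these small ratios cannot be told apart with 1 library per group.

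For 6 of the 23 guidance genes with more than 1 transcript row, the row with the highest value differed between the pools, beside 10.7% of all genes with several rows. Of the 11 such genes that were detected, 2 did so, Nrp2 and Efna1, beside 7.84% of all detected genes with several rows. The other 4, Ntn5, Sema4a, Sema6b and Sema6c, were below 1 TPM in both pools.

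In Nrp2 (chr1:62703317-62818692) the leading row was NM_001077404 in the alum pool, at 13.4 and 10.6 TPM, and NM_001077406 in the alum + KLH pool. The 6 rows combine a choice of last coding exon, which sets the membrane-spanning and cytoplasmic end of the protein, with short optional stretches before it. The sequences that tell the rows apart are shown 5′ to 3′ as annotated on GRCm38 (plus strand). They are the exon at chr1:62786281-62786316, whose last 15 bases (in capitals) are optional, the optional exon at chr1:62812534-62812584, and the first 150 bases of the alternative last coding exons, chr1:62795709-62795858 (upstream) and chr1:62815333-62815482 (downstream).
Nrp2 optional 15 bases: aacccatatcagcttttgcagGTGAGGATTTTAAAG
Nrp2 optional exon: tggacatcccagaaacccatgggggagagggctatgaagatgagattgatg
Nrp2 start of the upstream last coding exon: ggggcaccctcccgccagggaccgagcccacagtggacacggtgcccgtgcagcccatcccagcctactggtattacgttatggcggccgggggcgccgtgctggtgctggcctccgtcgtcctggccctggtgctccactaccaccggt
Nrp2 start of the downstream last coding exon: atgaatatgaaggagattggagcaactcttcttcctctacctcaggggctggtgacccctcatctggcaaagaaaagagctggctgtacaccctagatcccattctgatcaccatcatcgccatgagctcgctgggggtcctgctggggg
The row NM_001077407, which ends in the upstream exon without the optional 15 bases, was at 12.8 TPM in the alum pool and 2.57 TPM in the alum + KLH pool. The row NM_001077406, which ends in the same coding exon and has the 15 bases, was at 2.00 and 12.1 TPM. Added together, the rows with the upstream last exon were at 14.8 and 14.7 TPM, and those with the downstream last exon at 15.4 and 12.8 TPM. The opposite differences of NM_001077407 and NM_001077406 thus lay within 1 type of protein end. Whether they reflect the transcripts or the way reads were divided between the rows was not tested. The rows with the optional 15 bases made up 10.9% of Nrp2 in the alum pool and 45.1% in the alum + KLH pool, and those with the optional 51-base exon 48.7% and 39.6%. Of the 31-base words of NM_001077406, 99.3% also occur in other Nrp2 rows, as do 64.1% of those of NM_001077407, whose annotated transcript is longer. A word counts as shared if any other row of the gene holds it. Reads from such words do not point to a single row, though they can narrow the choice. No row-level difference here has a replicate check.

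**Figure D4:**
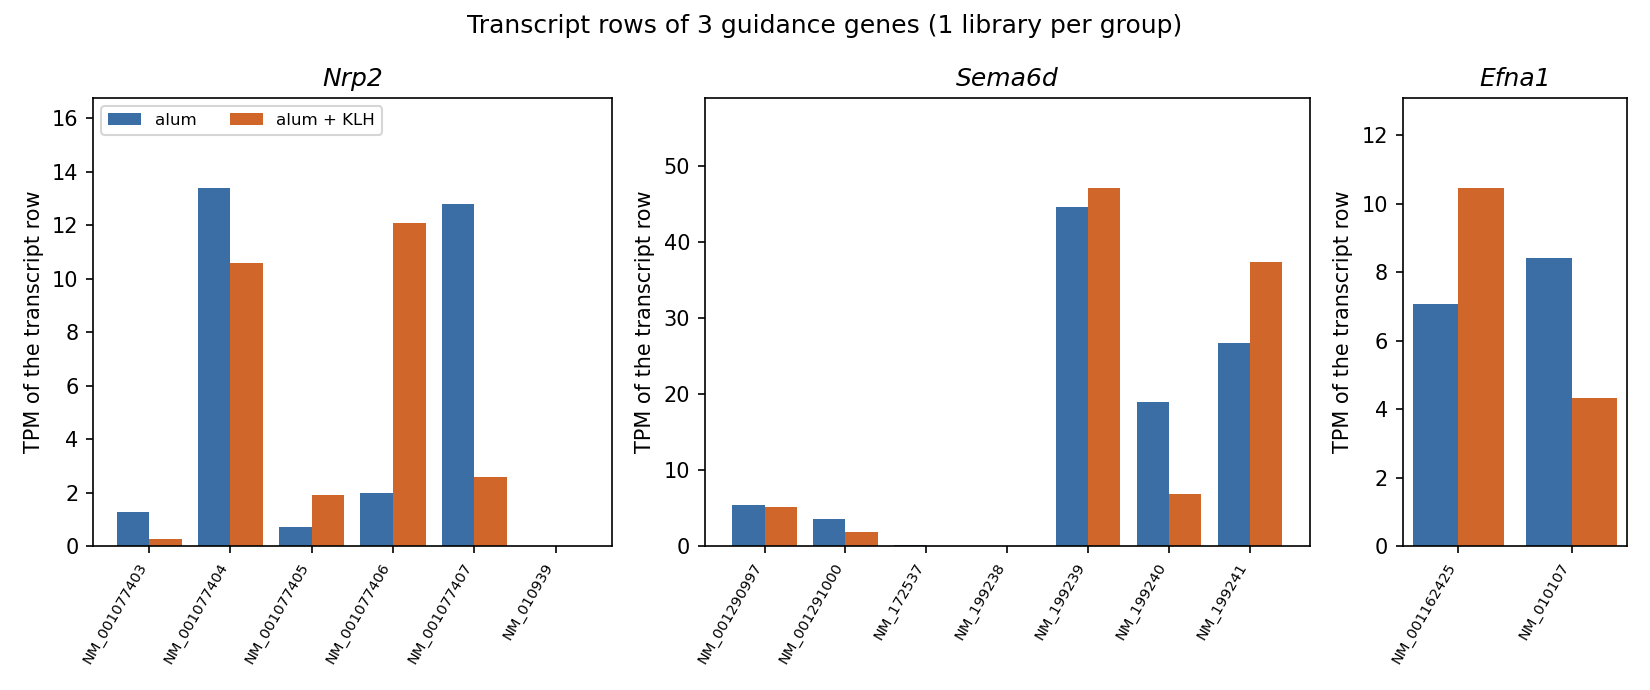
TPM of each transcript row of Nrp2, Sema6d and Efna1 in the alum library (blue) and the alum + KLH library (orange), 1 library per group and no error bars. Bars of single rows differ severalfold between the pools (12.8 and 2.57 TPM for NM_001077407 of Nrp2), while the sums per gene are 30.2 and 27.4, 99.4 and 98.4, and 15.5 and 14.8 TPM.

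Sema6d was nearly equal in sum but uneven in its rows. Its leading row, NM_199239, was at 44.7 TPM in the alum pool and 47.2 TPM in the alum + KLH pool, while NM_199240 was at 19.0 and 6.87 TPM and NM_199241 at 26.7 and 37.4 TPM. The exon at chr2:124660244-124660344 has 39 optional bases at its start (in capitals) in the leading row, and the exon at chr2:124660705-124660761 is present in NM_199239 and NM_199241 and absent from NM_199240.
Sema6d exon with optional start: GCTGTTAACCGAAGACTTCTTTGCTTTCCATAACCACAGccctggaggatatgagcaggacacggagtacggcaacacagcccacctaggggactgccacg
Sema6d optional 57-base exon: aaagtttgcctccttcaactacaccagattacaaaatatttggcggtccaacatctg
Rows with the 57-base exon summed to 74.9 and 86.5 TPM, which is 75.3% of Sema6d in the alum pool and 87.8% in the alum + KLH pool. Rows with the 39 optional bases were at 44.8 and 47.2 TPM. Counted as for Nrp2, 99.5% of the sequence words of NM_199239, 99.6% of NM_199240 and 99.98% of NM_199241 also occur in other Sema6d rows. Whether the row values and these shares reflect the transcripts or the way reads were divided between the rows was not tested. Efna1 has 2 rows, of which NM_010107 holds the coding start at chr3:89279451-89279542 (minus strand) and NM_001162425 begins at another first exon.
Efna1 coding start of NM_010107: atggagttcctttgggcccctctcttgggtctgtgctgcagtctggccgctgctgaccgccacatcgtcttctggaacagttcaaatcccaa
NM_010107 was at 8.41 and 4.31 TPM and NM_001162425 at 7.06 and 10.5 TPM. The order of the row values thus turned while the sum was 15.5 and 14.8 TPM. Of the sequence words of NM_010107, 86.3% also occur in the other Efna1 row, as do 78.2% of those of NM_001162425. The division of reads between the Efna1 rows was not tested either.

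Genes that work with these ligands and receptors were also read. Of 89 further pathway genes listed by role, some of them under several roles, 71 were above 3 TPM in both pools, where 45.5% of all genes were. Of the 73 above 3 TPM in at least one pool, 0 were at least 1.5-fold higher in the alum + KLH pool and 1 at least 1.5-fold lower, a share near the 1.0% and 1.55% of all genes. The 1 gene was Gpc1, a heparan sulfate proteoglycan that binds Slits, at 14.1 and 8.89 TPM, and its transcript has 59.1% GC. Its log2 ratio was -0.61, and -0.42 after GC centring, which is less than 1.5-fold. Among other cues and co-receptors, 19 of 28 were detected in both pools, including Rgmb at 158 and 162 TPM, its receptor Neo1 at 18.7 and 18.2 TPM, and the adhesion genes L1cam at 101 and 85.1 TPM and Nrcam at 94.4 and 93.0 TPM. Ntng1, a membrane-anchored relative of the netrins that does not bind Dcc, was at 50.1 and 46.2 TPM, far above the netrins themselves. Detected in both pools were also 18 of 22 genes of semaphorin and plexin signalling, among them Dpysl2, which encodes the collapsin response mediator protein CRMP2, at 159 and 157 TPM. The same held for 14 of 17 genes of Eph signalling, with Chn1, an effector of Epha4, at 147 and 151 TPM, for 10 of 11 of Slit and Robo signalling, with Srgap3 at 97.3 and 98.3 TPM, and for 14 of 15 of netrin and Dcc signalling, with Ablim1 at 130.5 and 126.7 TPM.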

How the data were processed

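The authors prepared stranded mRNA libraries, trimmed the reads with cutadapt and used kallisto to quantify annotated transcripts of the mm10 iGenome reference. Tool versions are not given in the sources used here. They deposited TPM for each RefSeq transcript, with a sum of 1000000 in each library. The methods state a minimum read depth per sample, but the reads of each gene cannot be had from TPM, and no interval or floor was computed. The guidance genes, the marker and pathway lists and the comparisons were chosen with earlier results of these data known.

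TPM was summed per symbol, and genes above 3 TPM were called detected. Differences are log2 ratios of TPM + 1, alum + KLH over alum, and the added 1 TPM understates those of low genes. Each was set beside the SD over the 500 genes closest in mean log2(TPM + 1), which describes these libraries and is no test. With 1 library per group no test was made. Genes named one by one were those above 10 TPM (at most 10 per role), the 3 highest and 3 lowest ratios, and those whose leading row differed between pools. Others are given as values to account for every member.

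Gene positions came from RefSeq (GRCm38.p6), transcripts, exons and GC content from GENCODE M21 (GRCm38, the assembly of mm10) through its RefSeq table, and promoters from RefSeq. Protein sequences were not used here. Calculations used Python 3.11.15, numpy 2.4.6 and pandas 2.3.3, figures used matplotlib 3.10.9, and the calculations were tested on simulated data.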

Additional observations from a re-analysis of the deposited data

How the results depend on the processing

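Counting every gene above 0 TPM as detected gave 69 guidance genes in the alum pool and 68 in the alum + KLH pool, and thresholds of 1 and 10 TPM gave 42 and 36, and 22 and 22. No detected guidance gene was 1.5-fold apart with pseudocounts of 0.1 or 0.5 TPM, the highest row per gene, either rescaling, coding rows only, the other thresholds or GC centring, and none was 2-fold apart. The median ratio was -0.13 relative to Hprt and between -0.094 and -0.011 otherwise. Of the 29 genes named by rule, 10 had a ratio whose sign turned under at least 1 alternative. Read on its highest row alone, Efna1 had a ratio of 0.51, Nrp2 of -0.31 and Sema4a of -0.87. With a pseudocount of 0.1 TPM, Ntn5 had a ratio of -0.15 and Sema6b of -0.32. GC centring was added after the data had been seen. No paired analysis was possible because each group has 1 library, and for the same reason no library could be left out.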

Other observations

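Detected and undetected guidance genes differed in base composition. The leading transcripts of the 37 guidance genes under the threshold had a median GC content of 57.7%, against 49.4% for the 32 detected ones. Over all genes the medians were 49.9% for undetected and 48.7% for detected genes. Among the undetected genes, 4 of 5 EphB receptors, 3 of 3 B-type plexins and 3 of 4 netrins had over 55% GC, while Sema3a (40.8% GC), Epha3 (41.9%) and Dcc (44.3%) were undetected with a low GC content. These are descriptions across genes of the same libraries and were not tested.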
